A study of Mus musculus with 16 samples.

Results

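Myc and 38 genes of ribosome assembly and related growth metabolism were followed through 4 groups of mouse bone marrow progenitors. The 39 genes were listed by name, as nucleolar, ribosome assembly and Myc target genes, and the rule itself uses no measured value. The list was drawn up with earlier results of these data known, so it was not blind to them. Of the 39, 37 had a probe set of their own among the 22180 genes measured. Fbl and Tsr1 lay only on probe sets that carry several symbols and were not analysed here.

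Myc is a transcription factor that binds E-box DNA (CACGTG) with its partner Max and raises the transcription of genes for growth. Ribosome assembly starts in the nucleolus, where RNA polymerase I copies the ribosomal RNA genes, small nucleolar ribonucleoproteins modify the transcript, and assembly factors fold and cut it into the small and the large subunit. In proliferating hematopoietic progenitors this machinery is active, and it is a textbook target of Myc.

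The study hybridised total RNA of macrophage and dendritic cell progenitors (MDPs) and of common monocyte progenitors (cMoPs), their descendants in the monocyte lineage, to Affymetrix arrays. There were 4 control MDP arrays and 4 control cMoP arrays from Dnmt1+/+ mice, and 4 MDP and 4 cMoP arrays from Dnmt1c/chip mice, 16 in all. Mice were 8 to 12 weeks old and no treatment is named in the labels. The sort gates shared Lin-, high cKit, CD115+ and CD11b-, and the MDP gate was Ly-6C- while the cMoP gate was Ly-6C+. The Dnmt1 protein copies DNA methylation onto newly replicated strands. As background, the chip allele is hypomorphic and the c allele is a null allele, both are carried in the germline, and so every cell type of these mice has reduced Dnmt1. The labels give neither the strain nor the sex, nor whether each array stands for its own animal or for a pool, and p-values therefore rest on the spread between these samples alone.

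Values are log2 levels, 1 per gene and array, and array medians over all probe sets lay between 3.43 and 3.62. Arrays correlated with the rest of their own group at 0.972 to 0.987 on average. The targeted gene Dnmt1 fell from 9.86 ± 0.07 to 8.75 ± 0.27 (SD, n = 4 arrays each) between control and c/chip MDPs, and from 9.78 ± 0.09 to 8.88 ± 0.15 in cMoPs, with p = 0.0286 in both cell types, the smallest that a two-sided exact permutation test of 4 against 4 arrays can give. The Ly-6C gene Ly6c2 had means of 10.20 in control MDPs, 11.27 in c/chip MDPs, 12.04 in control cMoPs and 12.12 in c/chip cMoPs, so the Ly-6C-negative c/chip population carried more of its transcript than the control one (limma adjusted p = 0.000472). Of the other progenitor markers measured, Flt3 was lower, at 9.43 in control and 7.47 in c/chip MDPs (limma adjusted p = 0.000271). Control cMoPs had Flt3 at 6.285. Csf1r, the gene of CD115, was at 9.03 in control and 8.56 in c/chip MDPs, and at 9.22 in control cMoPs. Between MDP genotypes Csf1r did not pass, nor did Kit, Itgam, Ly6c1 and Cx3cr1. On c/chip MDP arrays 1, 3 and 4 the X-inactivation transcript Xist stood at 9.51, 10.65 and 9.72. The mean level of 3 Y-linked genes on the same arrays was 6.42, 5.27 and 5.51. These arrays thus carried Xist and Y-linked transcripts together, and whether they held cells of both sexes was not tested. On c/chip MDP array 2 Xist was at 4.26. In control mice of both cell types Xist was at 10.79 to 11.36 on arrays 1 and 2 and at 3.58 to 4.29 on arrays 3 and 4, and in c/chip cMoPs it was high on array 1 alone (10.90), so sex followed the replicate number in controls and was not balanced between genotypes. Results in MDPs are also given with c/chip array 2 alone in its group. That fit keeps all 4 control MDP arrays, so it does not balance sex, and it rests on 1 c/chip array.

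All 37 measured members lay above every array median on all 16 arrays, with values from 5.42 to 11.56. The median within-group SD of the members was 0.23, against 0.27 over all genes. These sets are not matched for level: the median mean level was 8.174 in the members and 3.695 over all genes. Npm1, which encodes the histone chaperone nucleophosmin of the granular nucleolus, stayed between 11.45 and 11.56 on all arrays. Ncl, the gene of nucleolin, an RNA-binding protein of the nucleolus, lay between 10.92 and 11.40. The widest spread within groups was that of Bysl (pooled SD 0.38) and Noc4l (0.37), 2 small-subunit assembly genes.

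**Figure D1:**
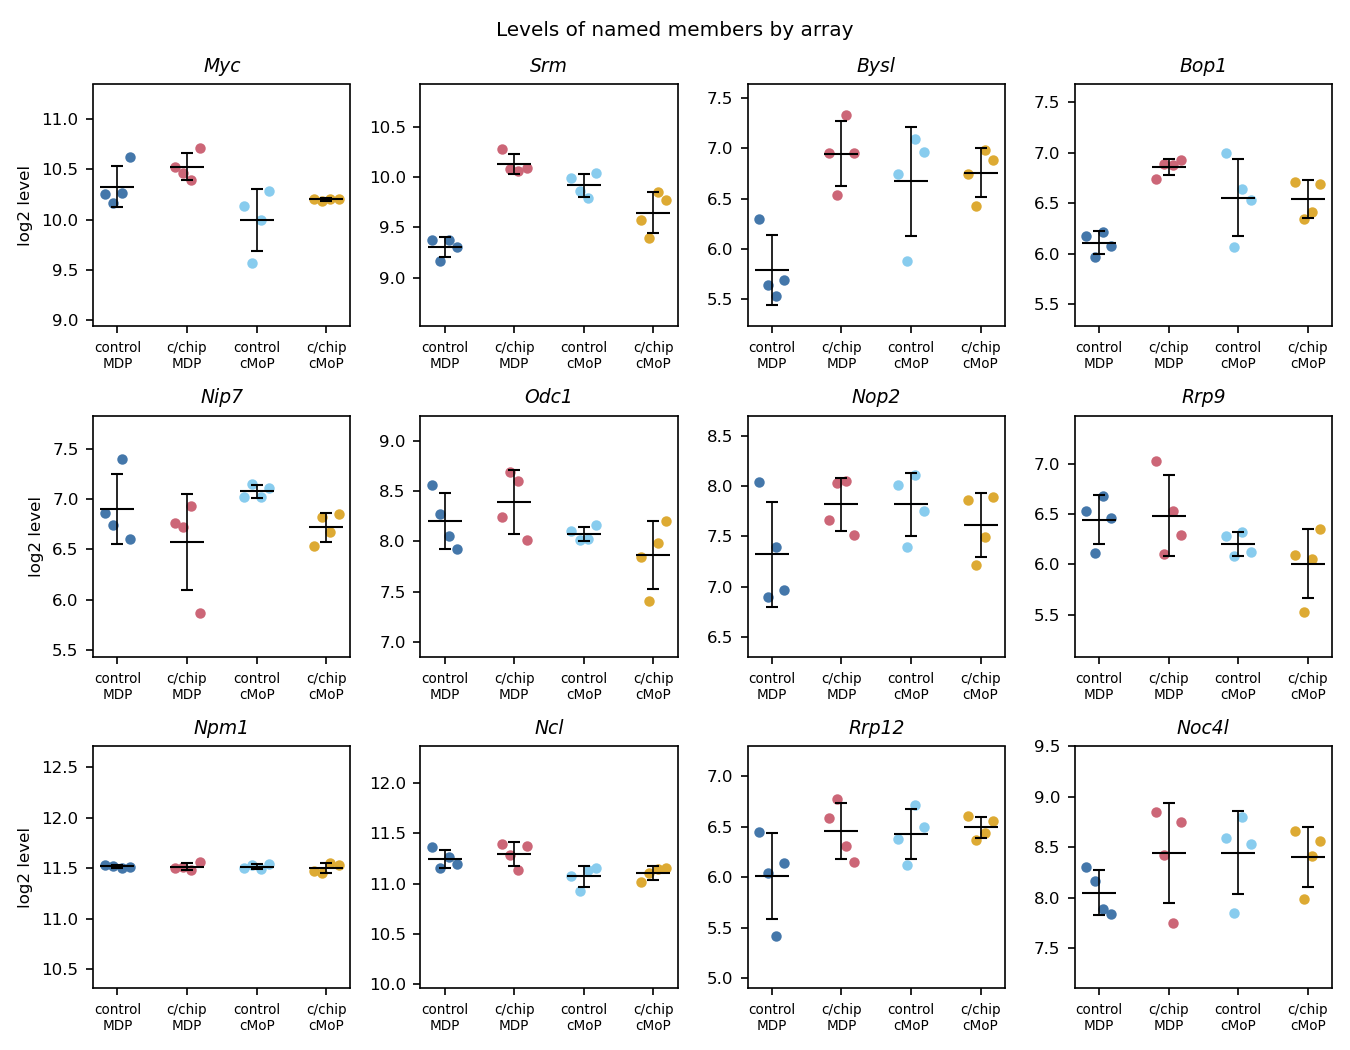
Log2 level (vertical axis) of 12 members on each of the 16 arrays, by group on the horizontal axis; points are arrays, and bars are the mean and SD of the 4 arrays of a group. Every panel spans the same log2 width. In Srm, Bysl and Bop1 all 4 c/chip MDP arrays lie above all 4 control MDP arrays, while Npm1 stays between 11.45 and 11.56 throughout.

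In MDPs, reduced Dnmt1 went with higher levels of 3 members: Srm, Bysl and Bop1. These 3 of 37 passed the test as higher in c/chip MDPs, where 1.26% of all genes did, and 0 members passed as lower, where 0.685% of all genes did (limma, Benjamini-Hochberg adjusted p under 0.05 over all 22180 genes). The share over all genes includes many genes of low level. In a fit of only the genes with a mean level above the median, 372 of 11090 passed as higher and 199 as lower. They belong to different steps: polyamine synthesis, small-subunit assembly and large-subunit assembly. Myc itself did not pass.

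Srm encodes spermidine synthase, which makes the polyamine spermidine and is a known Myc target. Its levels on control MDP arrays 1 to 4 were 9.37, 9.16, 9.38 and 9.30. On c/chip MDP arrays they were 10.28, 10.08, 10.06 and 10.09. The 2 groups did not overlap, and the lowest c/chip array stood well above the highest control array. The log2 difference was 0.82 (SE 0.126, 1.77-fold, limma adjusted p = 0.00262).

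Bysl encodes bystin, a factor needed to mature the small subunit. Control MDP arrays read 6.30, 5.65, 5.53 and 5.69, and c/chip MDP arrays 6.96, 6.54, 7.33 and 6.96. The groups did not overlap, although control array 1 came close to c/chip array 2. The difference was 1.15 (SE 0.247, 2.22-fold, limma adjusted p = 0.0251).

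Bop1 encodes a subunit of the PeBoW complex, with Pes1 and Wdr12, which acts in large-subunit assembly. Control MDP arrays read 6.18, 5.96, 6.21 and 6.07, and c/chip MDP arrays 6.74, 6.89, 6.87 and 6.93. The groups did not overlap. The difference was 0.75 (SE 0.166, 1.69-fold, limma adjusted p = 0.0287). The other 2 PeBoW genes were at 0.13 (Pes1, adjusted p = 0.745) and 0.11 (Wdr12, adjusted p = 0.804) and did not pass the limma test.

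Fitted on the 2 MDP groups alone, the count fell from 3 to 1, with Bysl at adjusted p = 0.0818 and Bop1 at 0.0593, and with c/chip array 2 alone in its group it fell to 0 (Srm 0.77, limma adjusted p = 0.126; Bysl 0.74, 0.519; Bop1 0.79, 0.274), a fit that rests on 1 c/chip array. The share of all genes called as higher also fell, from 1.26% to 0.207% in the first of these fits and to 0.469% in the other. The count was 1 without control MDP array 2, 3 or 4 or c/chip MDP array 4: Bysl lost its call without control MDP array 2, 3 or 4 or c/chip MDP array 1, 3 or 4, and Bop1 without any 1 control MDP array or c/chip MDP array 2 or 4.

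The promoters of 32 of the 39 listed genes were matched in RefSeq (GRCm38.p6, 250 bases before to 50 after the transcription start). Those of Bysl, the called member that was matched, and of Nop2 and Mybbp1a, members described below whose windows hold the canonical E-box CACGTG, are shown to set the motif beside the expression values. Capitals mark CACGTG, which reads the same on both strands, and sequences run 5′ to 3′ on the gene's strand. Bysl lies at chr17:47611443-47611742 on the minus strand, Nop2 at chr6:125131633-125131932 on the plus strand and Mybbp1a at chr11:72441077-72441376 on the plus strand.
Bysl: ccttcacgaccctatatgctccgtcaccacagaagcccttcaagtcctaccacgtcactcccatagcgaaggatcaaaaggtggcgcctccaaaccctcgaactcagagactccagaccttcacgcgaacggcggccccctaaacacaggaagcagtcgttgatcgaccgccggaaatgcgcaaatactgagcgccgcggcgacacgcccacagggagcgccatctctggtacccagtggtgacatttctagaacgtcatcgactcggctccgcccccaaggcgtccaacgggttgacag
Nop2: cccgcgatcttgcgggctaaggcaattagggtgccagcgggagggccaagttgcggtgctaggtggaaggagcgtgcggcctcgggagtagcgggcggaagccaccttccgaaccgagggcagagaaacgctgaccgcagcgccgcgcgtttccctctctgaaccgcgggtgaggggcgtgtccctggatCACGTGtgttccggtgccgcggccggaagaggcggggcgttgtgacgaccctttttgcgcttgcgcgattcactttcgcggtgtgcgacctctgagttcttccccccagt
Mybbp1a: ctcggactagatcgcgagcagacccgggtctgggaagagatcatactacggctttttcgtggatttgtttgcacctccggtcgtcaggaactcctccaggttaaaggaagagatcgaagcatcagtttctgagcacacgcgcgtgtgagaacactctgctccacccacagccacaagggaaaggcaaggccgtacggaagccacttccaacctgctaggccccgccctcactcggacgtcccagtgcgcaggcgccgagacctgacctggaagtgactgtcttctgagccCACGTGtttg

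The Bysl window held no CACGTG, and had 27 CpG dinucleotides. In Nop2 the motif began 60 bases before the start, among 35 CpGs, and in Mybbp1a it began at base 41 of the transcript, among 21 CpGs. Across members, 6 of 32 genes with a window held CACGTG (18.8%), namely Mybbp1a, Nop2, Pes1, Tsr1, Utp20 and Wdr43, and so did 9.19% of the 16990 tested genes with a window. The median number of CpGs per window was 21 in the members (range 5 to 44) and 13 over all tested genes. A match is only a description of these letters. In MDPs the genotype differences of the 5 measured members with the motif were 0.50 for Mybbp1a, 0.50 for Nop2, 0.13 for Pes1, −0.15 for Utp20 and −0.01 for Wdr43, and 0 of them passed the test.

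The other 34 members did not pass in MDPs. By sign, 27 of 37 members were above 0 (54.3% of all genes were), with a median of 0.11 against 0.03 over all genes. At an unadjusted p under 0.05, 7 members were higher (8.42% of all genes) and 1 was lower (5.87%). Of these, Rrs1, Mybbp1a, Nop14 and Dkc1 are named here after their values were seen. Rrs1, a large-subunit assembly gene, was 0.71 higher (SE 0.211, limma adjusted p = 0.103), with control arrays at 6.35, 6.07, 5.87 and 6.19 and c/chip arrays at 6.48, 6.91, 7.37 and 6.56. Its groups did not overlap. Mybbp1a, whose product binds Myb and sits in the nucleolus, was at 0.50 (limma adjusted p = 0.132), Rrp12 at 0.44 (0.313) and Nop14 at 0.39 (0.301), the last 2 small-subunit genes. Dkc1, the pseudouridine synthase dyskerin, was 0.31 lower (limma adjusted p = 0.298), with control arrays at 9.41 to 9.57 and c/chip arrays at 8.86 to 9.37. In all, 4 members lay without overlap on the higher side (4.18% of all genes did) and Dkc1 on the lower side (2.82%).

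By role, the MDP genotype differences of the 3 metabolic genes Srm, Odc1 and Cad had a median of 0.19. Odc1, the ornithine decarboxylase upstream of Srm in polyamine synthesis, was at 0.19 (SE 0.189, adjusted p = 0.733), with overlapping arrays (control 8.56, 8.27, 8.05 and 7.92; c/chip 8.25, 8.69, 8.60 and 8.01). The 10 small-subunit genes ran from −0.15 to 1.15 (median 0.15), the 11 large-subunit genes from −0.33 to 0.75 (median 0.11) and the 5 nucleolar proteins from −0.005 to 0.50 (median 0.16). The 2 polymerase I subunit genes, Polr1a and Polr1b, were at 0.08 and 0.07, and the box C/D proteins Nop56 and Nop58, which hold the methylation guide RNAs, at −0.03 and −0.08. Among the large-subunit genes, Nop2, the 28S rRNA methyltransferase gene, was at 0.50 (adjusted p = 0.367) with groups that overlapped, because control array 1 stood at 8.04 and the other 3 at 6.89 to 7.39. Nip7, a further large-subunit gene, was at −0.33 (adjusted p = 0.52).

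**Figure D2:**
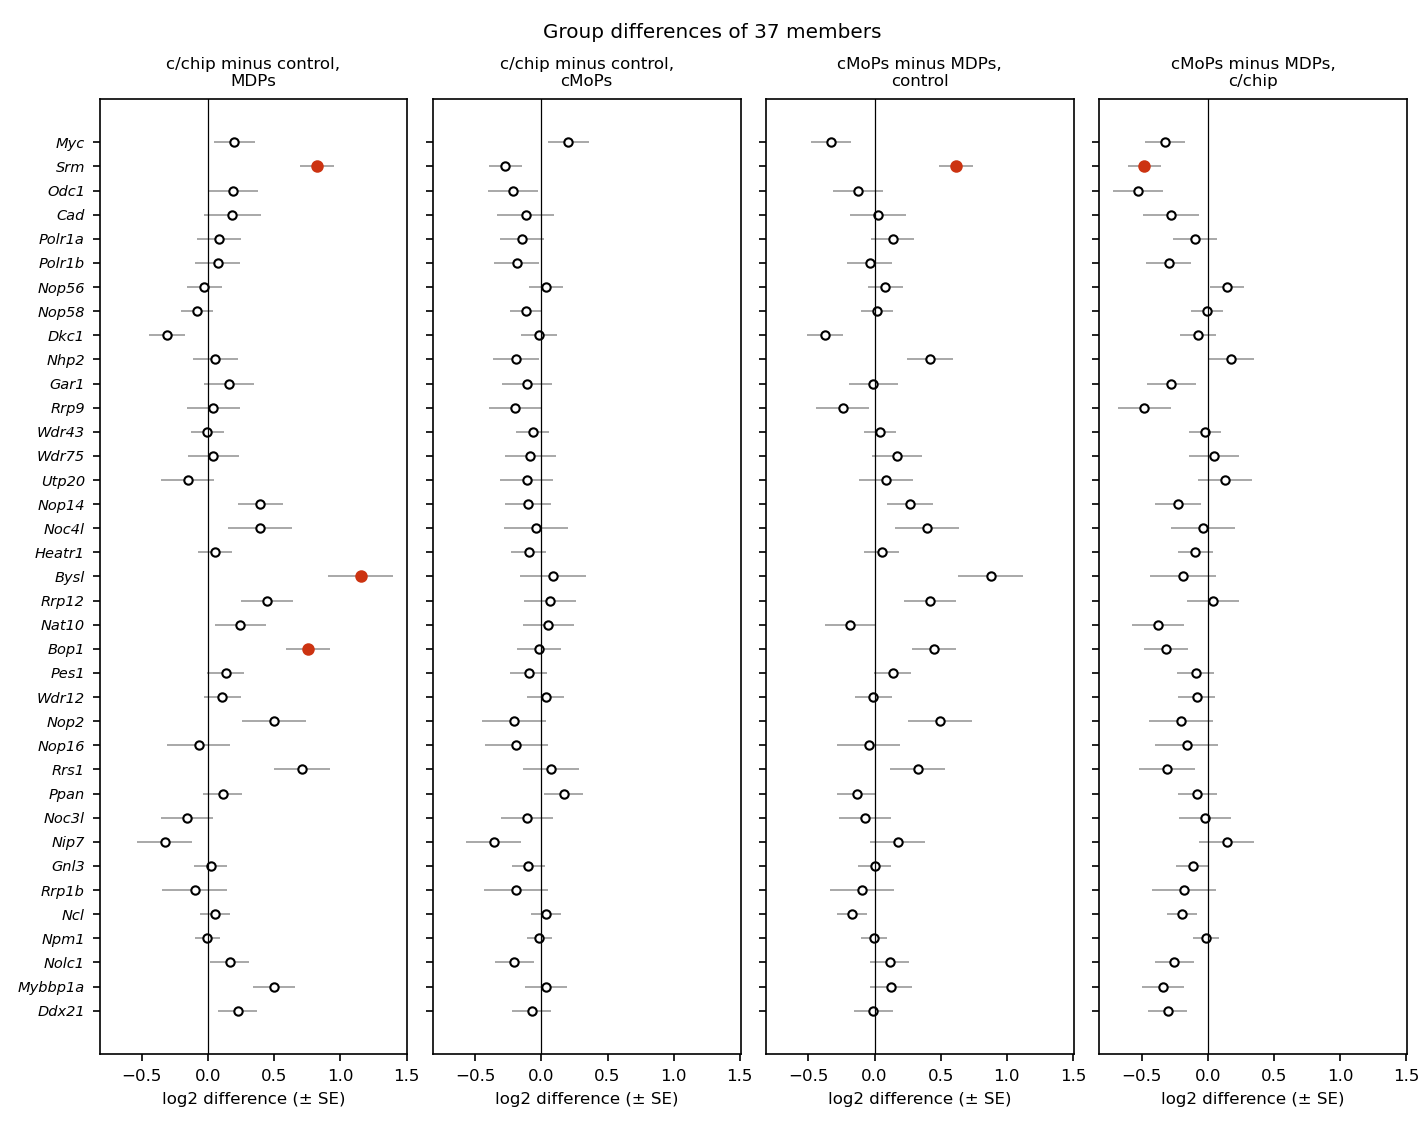
Log2 difference (horizontal axis, point with its SE as a bar) of the 37 members in 4 comparisons, ordered by role. Filled red points passed limma's test at adjusted p under 0.05: Srm, Bysl and Bop1 in MDPs, Srm in both cell type comparisons, and no member between genotypes in cMoPs.

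In cMoPs no member passed between genotypes, in either direction (0.0676% of all genes were higher and 0.0451% lower at adjusted p under 0.05). At an unadjusted p under 0.05, 0 members were higher (2.21% of all genes) and 1, Srm, was lower (2.53%). Of 37 differences, 35 lay within 0.25 of 0 and 10 were above 0 (47.3% of all genes were), with a median of −0.10 against −0.01 over all genes. The number above 0 was 3 without control cMoP array 2 and 18 without c/chip cMoP array 2. The SEs of the members were 0.098 to 0.247, so modest differences were not detectable. For Bysl the 95% interval of the difference in cMoPs was −0.43 to 0.61 (limma), and for Bop1 −0.37 to 0.33.

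Srm in control cMoPs stood at 9.99, 9.86, 9.79 and 10.04, and in c/chip cMoPs at 9.57, 9.40, 9.85 and 9.77. The 2 groups overlapped at c/chip array 3. The difference was −0.27 (SE 0.126, limma adjusted p = 1). Nip7 did not overlap, with control cMoPs at 7.02 to 7.15 and c/chip cMoPs at 6.53 to 6.85 (difference −0.36, SE 0.208, limma adjusted p = 1), the only member without overlap on the lower side (1.93% of all genes were), and 0 members were so on the higher side (1.94%).

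Whether a genotype difference depended on the cell type was tested as the difference in cMoPs minus that in MDPs. Only Srm passed, on the lower side, at −1.09 (SE 0.179, limma adjusted p = 0.0273), where 0.0451% of all genes passed as lower and 0.0135% as higher. Srm was thus higher with reduced Dnmt1 in MDPs, with no call in cMoPs, and the gap between the 2 effects was itself past the threshold. For Bysl the same term was −1.06 (SE 0.35, limma adjusted p = 0.369) and for Bop1 −0.77 (SE 0.235, limma adjusted p = 0.344), so their effects are not shown to differ between the cell types. Of 37 members, 6 had a term above 0 (44.5% of all genes did), a number that was 3 without control cMoP array 2 and 10 without c/chip cMoP array 1 or with median centring. At an unadjusted p under 0.05, 4 members, namely Srm, Bysl, Bop1 and Rrs1, were on the lower side (5.11% of all genes) and 0 on the higher (3.41%). The Srm call was lost with median centring (adjusted p = 0.0644), and with both cMoP arrays numbered 2 left out (limma adjusted p = 0.0864). It was lost with c/chip MDP array 2 alone in its group (limma adjusted p = 0.138), and when single arrays were left out in turn it was lost 8 of 16 times (limma adjusted p up to 0.0797).

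Myc levels did not pass in any comparison. Control MDPs read 10.26, 10.16, 10.27 and 10.62, c/chip MDPs 10.52, 10.47, 10.40 and 10.71, control cMoPs 10.14, 9.57, 10.00 and 10.29, and c/chip cMoPs 10.21, 10.18, 10.21 and 10.21. The MDP groups overlapped through control array 4, and the control cMoP array 2 was the lowest of all 16. The genotype difference was 0.20 in MDPs (SE 0.152, limma adjusted p = 0.618, exact permutation p = 0.171) and 0.20 in cMoPs (limma adjusted p = 1, exact permutation p = 0.314), and the term for their difference was 0.01 (SE 0.215, limma adjusted p = 0.997). From MDPs to cMoPs Myc was at −0.33 in control mice (limma adjusted p = 0.299, exact permutation p = 0.143). In c/chip mice it was at −0.32 (SE 0.152, limma adjusted p = 0.314), with no overlap between arrays and an exact permutation p of 0.0286, the smallest that 4 against 4 arrays allow.

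Between the cell types of control mice, Srm was the 1 member past the threshold, higher in cMoPs (2.84% of all genes passed as higher and 1.71% as lower). It differed by 0.62 (SE 0.126, 1.53-fold, limma adjusted p = 0.00711), and its control MDP and control cMoP arrays, listed above, did not overlap. This was the only member without overlap on the higher side (6.03% of all genes were), and Dkc1, at −0.37, the only one on the lower side (4.76%). Bysl was at 0.88 (SE 0.247, limma adjusted p = 0.0531), with control cMoPs at 6.75, 5.89, 7.09 and 6.96: array 2 stood among the control MDP arrays and the other 3 above them. Without control cMoP array 2 the difference was 1.14 (limma adjusted p = 0.00465), and Bop1 also passed (0.61, limma adjusted p = 0.0239). Nop2 was at 0.50 and Rrp12 at 0.42, neither past the threshold. At an unadjusted p under 0.05, 4 members were higher (9.13% of all genes), namely Srm, Bysl, Bop1 and Nhp2, and 2, Myc and Dkc1, were lower (7.02%). By sign, 21 of 37 were above 0 (49.4% of all genes were), a number that ran from 16 under quantile normalization to 28 without control cMoP array 2.

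In c/chip mice, where the same comparison reuses the c/chip MDP arrays, Srm was lower in cMoPs (−0.48, SE 0.126, 1.39-fold, limma adjusted p = 0.0481). It was the 1 member called, where 1.8% of all genes passed as higher and 1.49% as lower. Leaving out single arrays in turn ended this call 15 of 16 times, with limma adjusted p between 0.0495 and 0.148 over the 16 fits. Without overlap were 0 members on the higher side (4.95% of all genes) and 3 on the lower (5.1%), namely Myc, Srm and Bop1. Odc1 was at −0.53 (limma adjusted p = 0.164) and Rrp9, a small-subunit processome protein bound to the U3 small nucleolar RNA, at −0.48 (limma adjusted p = 0.249). At an unadjusted p under 0.05, 5 members were lower (8.2% of all genes), namely Myc, Srm, Odc1, Rrp9 and Mybbp1a, and 0 were higher (7.66%). By sign, 6 of 37 were above 0 (43.2% of all genes were), with a median of −0.16 against −0.04 over all genes. That number was 13 without c/chip cMoP array 2 and 11 with median centring. Each cell type comparison shares arrays with both genotype comparisons, so their counts are not independent of one another. The genotype comparisons in MDPs and in cMoPs share no array with each other.

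**Figure D3:**
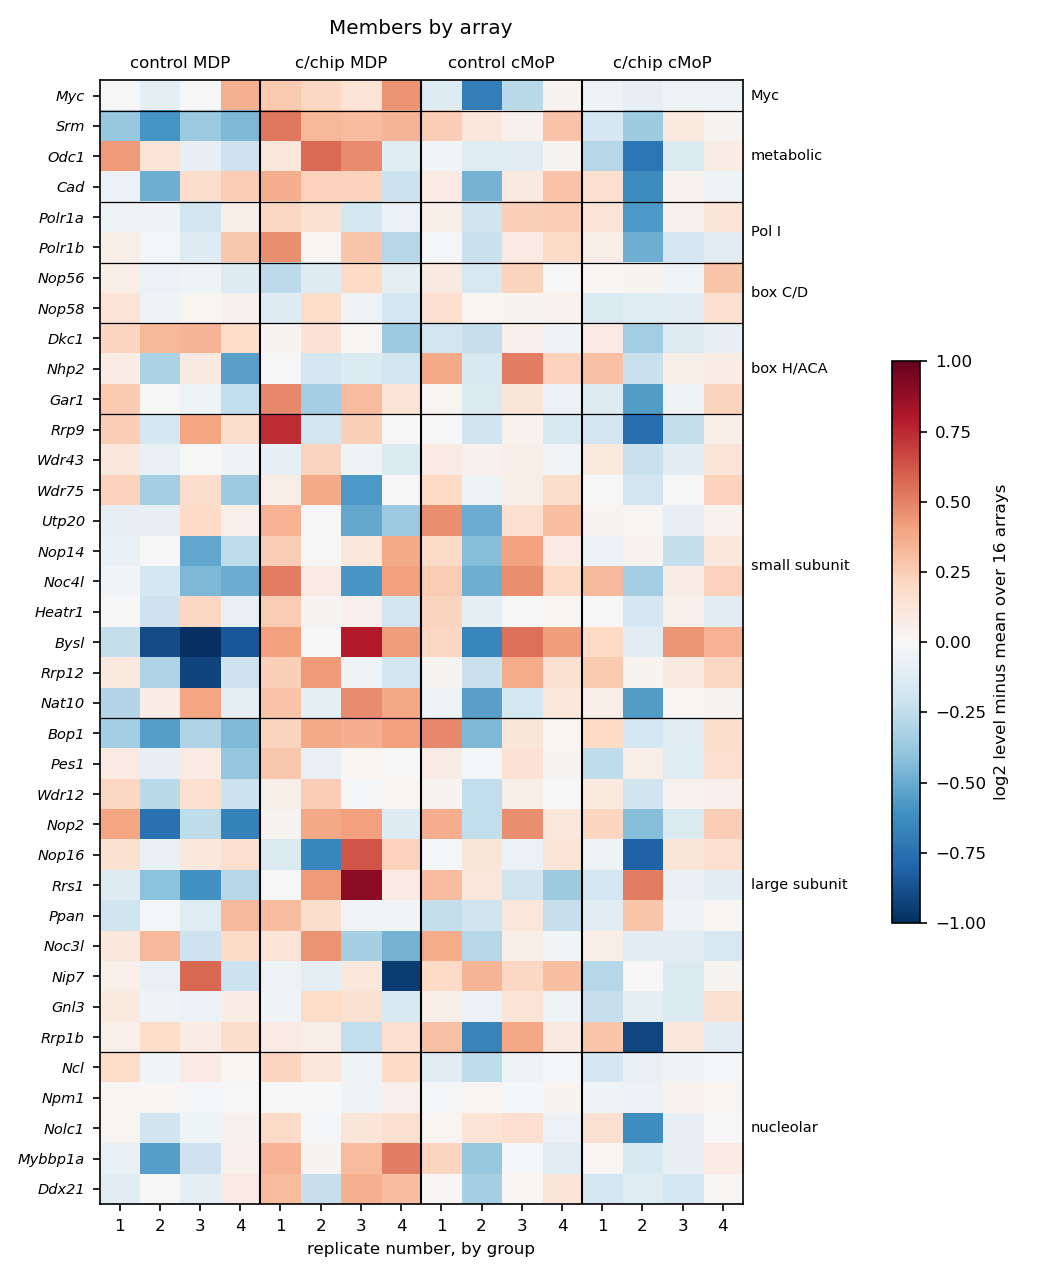
Level of each of 37 members on each array minus the gene's mean over all 16 arrays (colour, log2; the scale ends at 1 in each direction), with members by role in rows and arrays by group and replicate number in columns. Array 2 of both cMoP groups is bluer than its neighbours for most members, and c/chip MDP arrays are red for Srm and Bop1.

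On array 2 of both cMoP groups most members were below their mean. The median deviation of the 37 members from their own 16-array means was −0.20 on control cMoP array 2 and −0.17 on c/chip cMoP array 2, against −0.05 to 0.08 on the other 6 cMoP arrays. On these 2 arrays 8 and 8 of the 37 members were above their mean, and on control MDP array 2 it was 7. Over all genes, 10637, 10321 and 10636 of 22180 were above their mean on these arrays, in that order. The median deviation of the members was 0.00 to 0.22 on the c/chip MDP arrays and −0.08 to 0.05 on the control MDP arrays. Over all genes the median deviation stayed within −0.05 and 0.03 on all 16. The part of array 2 in the results was not tested beyond leaving it out, as given above for Bysl and Srm.

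**Figure D4:**
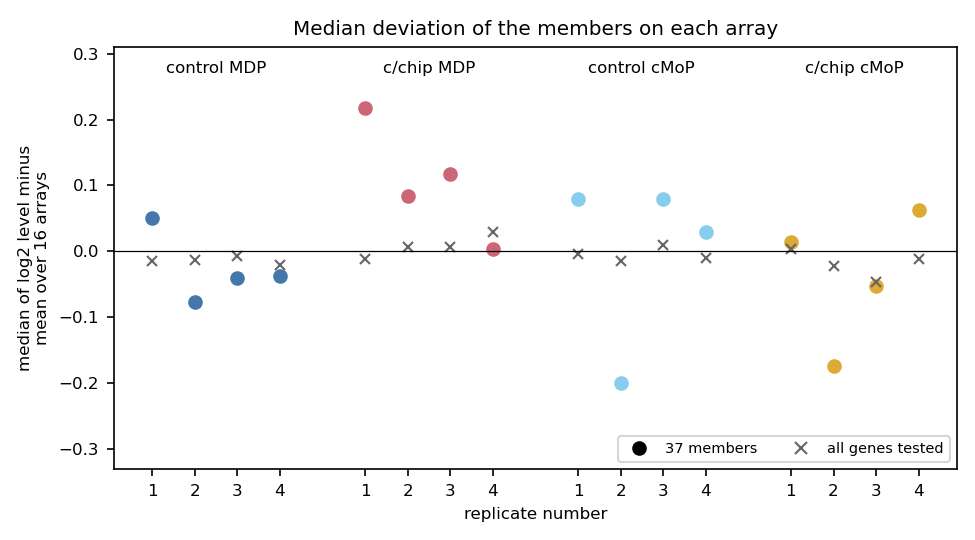
Median over the 37 members (filled circles) and over all 22180 genes (crosses) of the log2 level minus the gene's mean over 16 arrays (vertical axis), by group and replicate number (horizontal axis). Control cMoP array 2 and c/chip cMoP array 2 are the lowest, at −0.20 and −0.17, and the crosses stay near 0.

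Other genes of the pathway were counted by list, to be read against the shares of all genes called in each comparison. Of 45 further small-subunit genes, 3 (6.67%, against 2.84% of all genes) passed as higher in control cMoPs than in control MDPs: Pno1 (0.90, limma adjusted p = 0.0324), Krr1 (0.55, limma adjusted p = 0.0217) and Ltv1 (0.75, limma adjusted p = 0.042). The shares over all genes are not matched for level. In a fit of only the genes with a mean level above the median, 801 of 11090 passed as higher in this comparison, so no excess of small-subunit genes is shown. In yeast the counterpart of Krr1 acts early in small-subunit assembly and those of Pno1 and Ltv1 act late. Lists of 11 other polymerase I genes, 9 other small nucleolar protein genes, 12 exosome genes and 51 other large-subunit genes had 0 calls in all 5 comparisons, where 0.0135% to 2.84% of all genes were called in 1 direction. Of 59 ribosomal protein genes, Rps23 was higher in control cMoPs (1.09) and Rpl9 in c/chip cMoPs (0.71), each against the MDPs of the same genotype and each 1.69% of the list, against 2.84% and 1.8% of all genes. Of 16 genes of the Myc network, Mlx (0.95) and Trrap (0.59) were higher in c/chip cMoPs than in c/chip MDPs (12.5%, against 1.8% of all genes). Of 38 further Myc metabolic target genes, Tfrc, the transferrin receptor, was lower in c/chip MDPs (−0.66), and Ccnd2, cyclin D2, was lower in cMoPs of both genotypes (−1.07 and −0.94). Each is 2.63% of the list, against 0.685%, 1.71% and 1.49% of all genes called as lower in the 3 comparisons. None of these lists had a call between genotypes in cMoPs.

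Genes listed as markers of other lineages moved in MDPs alongside the 3 called members. The mean level of 17 neutrophil granule genes was 5.70 to 7.60 on control and 7.75 to 9.52 on c/chip MDP arrays (7 of 17 passed as higher). That of 10 erythroid and megakaryocyte genes was 4.11 to 4.84 and 5.46 to 6.81 (6 of 10 higher), and that of 9 basophil and mast cell genes 4.36 to 5.04 and 5.38 to 6.46 (5 of 9 higher). On control cMoP arrays the means of these lists were 7.32 to 7.97, 3.24 to 3.48 and 4.02 to 4.35, in that order. The neutrophil genes were thus also higher in control cMoPs than in control MDPs, by a median of 1.08 (range −0.63 to 3.80). For the other lists that median was −0.61 and −0.23. In c/chip MDPs Cma1 and Tpsb2 were the basophil and mast cell genes below the array medians, and 0 neutrophil genes and 0 erythroid or megakaryocyte genes were. The 11 dendritic cell genes ran from 5.05 to 5.57 and 4.65 to 4.89 (2 of 11 lower), and the 10 lymphoid genes from 4.32 to 4.95 and 3.98 to 4.43 (2 higher, 2 lower). Over all genes, 1.26% passed as higher and 0.685% as lower in c/chip MDPs. The part of these cells in the differences of Srm, Bysl and Bop1 was not tested, and in sorted RNA fewer cells of a type and less RNA per cell cannot be told apart.

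Immediate early genes, which are induced within minutes of stimulation or cell handling, were measured as a sign of cell handling. Over 24 such genes the median log2 difference between genotypes was −0.83 in MDPs, with 3 above 0 (54.3% of all genes were). In cMoPs it was −0.62, with 0 above 0 (47.3% of all genes were). Of the 24, 0 passed the limma test between genotypes in either cell type, where 0.0451% to 1.26% of all genes were called in 1 direction. Their mean level was 6.71 to 7.49 on the arrays numbered 1 or 2 of all 4 groups and 5.18 to 6.13 on those numbered 3. The arrays numbered 4 were at 6.81 in both control groups, at 5.55 in c/chip MDPs and at 5.21 in c/chip cMoPs. The part of these genes in the members' differences was not tested.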

How the data were processed

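Values were the deposited log2 levels of the series matrix, 1 per probe set and array. The authors' tools were affy, RMA and limma, per the submitters' processing notes, with versions and settings not given in the sources used here. In RMA, arrays are background-corrected and quantile-normalized, and probes are combined on the log2 scale, so a shift shared by all genes of an array cannot be seen. Groups came from the genotype and source labels, because the control cMoP titles carry both genotype names. The design text names an MG 430 PM array while the probe annotation is that of another Affymetrix platform, so the probes behind a symbol rest on that annotation. A second deposited table has 16 value columns that match no sample label and was not used.

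Of 41345 probe sets, 23521 had 1 symbol, 1820 several and 16004 none; 23328 matched the RefSeq table of GRCm38.p6 by Entrez ID, and 0 symbols changed. The brightest probe set stood for each of the 1082 genes with more than 1. Of the members, 5 had several such probe sets. In the MDP genotype comparison those of Ppan (0.11 and −0.45) and Npm1 (−0.005 and 0.011) disagreed in sign, those of Nop56 (−0.03, −0.68 and −0.39) in size, and those of Rrs1 (0.71 and 0.21) and Ddx21 (0.22 and 0.24) had the same sign. Between the cell types of control mice those of Ppan differed in size (−0.135 and −1.172) and those of Nop56 in sign (0.081, −0.297 and 0.441). Those of Nop56 also differed in sign between genotypes in cMoPs (0.036, 0.301 and −0.467). The array's own genome build was not used here, and the number of arrays limits the precision.

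One model of 4 group means over all 16 arrays was fitted with limma 3.58.1 in R 4.3.3 (lmFit, eBayes, prior of 4.72 degrees of freedom), with Benjamini-Hochberg adjustment over 22180 genes and a threshold of 0.05. Myc and Dnmt1 each had a two-sided exact permutation test of 4 against 4 arrays (70 arrangements). The script was tested on simulated data. SEs come from the fit and SDs from the arrays of 1 group. Named with values were Myc, every member past the threshold in a comparison, the 3 largest differences in each comparison, and the 2 members highest and lowest in mean level and widest in spread. The members, lists and tests were chosen with earlier results of these data known. Alternatives are given in the closing section.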

Additional observations from a re-analysis of the deposited data

Results flagged for a closer look

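In 3 of 52 groups of 4 arrays tested, 1 array lay far from the other 3, and chance flags about 1 group in 20. Myc in c/chip cMoPs was 10.18 on array 2, while the other 3 arrays lay within 10.21, so the gap is small in itself. Srm in c/chip MDPs was 10.28 on array 1, above the other 3, all on the same side of the control arrays. The mean level of the 37 members was 8.11 on control cMoP array 2, below the other 3 arrays of its group, which lay at 8.38 to 8.44.

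Srm also had different genotype differences in the 2 cell types: the difference in cMoPs minus that in MDPs was −1.09 by a test of that difference in the limma fit.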

How the results depend on the processing

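In MDPs the count of 3 called members fell to 1 in the fit of only the groups compared and to 0 with c/chip MDP array 2 alone in its group, and leaving out 1 array gave 1 to 3. In cMoPs the genotype count stayed at 0 under every alternative run. Between the cell types of control mice the count of 1 became 2 with genes above the median level only, with quantile normalization, with a trended and robust fit, and with a term that sets arrays numbered 1 or 2 apart from those numbered 3 or 4, and 3 with array weights and with both cMoP arrays numbered 2 left out, an alternative chosen after seeing the data. Leaving out 1 array gave 1 to 3. Between the cell types of c/chip mice the count of 1 became 0 with median centring, array weights, only the groups compared, that replicate term, c/chip MDP array 2 alone, and both cMoP arrays numbered 2 left out, and leaving out 1 array gave 0 to 1. The interaction count of 1 became 0 with median centring, c/chip MDP array 2 alone, and both cMoP arrays numbered 2 left out, and leaving out 1 array gave 0 to 1. Fewer arrays enter the fits that leave arrays out; for the other changes the cause was not tested. Myc passed under no alternative.

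Nothing in the labels ties same-numbered arrays together. After group means were removed they correlated at −0.04 to 0.19, and 3 of 24 pairs were over 0.1, all 3 between the control and the c/chip cMoPs (0.11, 0.19 and 0.15 for arrays 1 to 3, and 0.03 for array 4). There 6 of 8 arrays correlated best with their own number. In MDPs as in cMoPs, the mean of the immediate early genes was higher on arrays numbered 1 or 2 than on those numbered 3. In both control groups Xist set arrays 1 and 2 apart from 3 and 4. The numbers may thus share something in either cell type. Not every array correlated best with its own number, and the fit without the block was kept. With the replicate block the counts were 3 in MDPs, 0 in cMoPs, 2 between control cell types, 0 between c/chip cell types and 0 for the interaction (limma adjusted p for Srm 0.0621 between c/chip cell types and 0.0513 in the interaction, and for Bysl 0.0214 between control cell types).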
